A study of Mus musculus with 8 samples.

Results

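The Krüppel-like factors measured here were Klf7, the transduced gene, and Klf2, Klf3, Klf4, Klf6, Klf8, Klf9, Klf10, Klf12 and Klf13. They were the 10 named genes of 19938 with a probe set that carries a single gene symbol, and each was read by 1 probe set. No gene was left out for a low level, so all 10 were tested. RNA came from bone marrow cells of C57Bl/6 mice. Cells positive for the receptor c-Kit were infected with a lentivirus carrying KLF7, or with a control virus, and after 72 hours the Lin- c-Kit+ Sca-1+ (KLS) cells were sorted. Of the 8 arrays, 4 were labelled KLF7 and 4 control, all of the same strain, sort and time. The labels give neither the promoter and other contents of the virus nor the share of cells infected. They do not state whether the 4 arrays of a group came from separate cultures or animals, so a p-value here speaks of array-to-array spread alone, which may be technical.

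Krüppel-like factors are transcription factors that bind GC-rich and CACCC-containing DNA through zinc fingers at their carboxyl end, which are much alike across the family. The remainder of each protein differs and decides its partners. Klf7, Klf6, Klf2 and Klf4 can recruit acetyltransferases and often activate genes, Klf3, Klf8 and Klf12 bind the co-repressor CtBP, and Klf9, Klf10 and Klf13 bind the co-repressor Sin3A. In blood, family members are known for roles in red cells, monocytes, B cells and the resting state of T cells.

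All levels are log2 intensities of RMA-processed values, and each difference is the mean of the KLF7 arrays minus the mean of the control arrays on that scale. Levels are compared between arrays for 1 gene, or the mean of 1 list, at a time. Genes are not ranked by level, since probe sets differ in brightness, and a low level is named only to mark dim probe sets. The median intensity of an array lay between 46.2 and 54.1 units, and arrays correlated with each other at 0.936 to 0.982 across genes. Of the stem and progenitor markers, Kit lay between 7.85 and 10.52 and Gata2 between 8.39 and 11.21, Cd34 between 9.27 and 10.95 and Meis1 between 7.68 and 8.78, over all 8 arrays. The array numbered 4 was the lowest of its group for Kit and Gata2 and the highest for Cd34 and Meis1. Of the 12 stem and progenitor markers measured, 8 averaged higher on the KLF7 arrays, as did 50.4% of all genes. The median difference of the 12 was 0.13, but -0.07 without control array 3 and -0.02 without KLF7 array 4. Hlf (-0.90, SE 0.23) and Erg (-0.66, SE 0.25), both stem cell transcription factor genes, were lower on the KLF7 arrays without overlap. So were 2.38% of all genes, and the limma adjusted p-values were 0.327 for Hlf and 0.513 for Erg. Ly6a, which encodes Sca-1, is not analysed here.

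The question was which family members differ between cells given KLF7 and control cells. Klf7 itself had the largest difference of the 10, and Klf10 and Klf8 followed with higher means on the KLF7 arrays. Klf9 and Klf2 had lower means. Klf12 and Klf3 had higher means, with intervals that include 0. Klf4, Klf6 and Klf13 had smaller differences, also with intervals that include 0, and that of Klf6 was wide (-0.80 to 1.04). In limma with Benjamini-Hochberg adjustment at 0.05, 0 of the 10 passed, where 0 of all 19938 genes passed (0%). At an unadjusted p under 0.05 there were 3 higher (Klf7, Klf10, Klf8) and 2 lower (Klf9, Klf2) among the 10. Over all genes 8.21% had such a p, with 4.65% of all genes higher and 3.56% lower. The members were picked with results of these arrays known, so that count is not independent evidence of a response in the family. A higher mean on the KLF7 arrays was found for 7 of the 10 and for 50.4% of all genes, and the median difference was 0.23 for the 10 (0.15 without control array 4) and 0.0019 for all genes. The groups did not overlap for 3 of the 10, against 5.22% of all genes.

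Klf7, which acts in neurons and fat cells among other tissues, had 11.43, 10.19, 11.05 and 10.52 on KLF7 arrays 1 to 4, against 8.53, 10.28, 9.35 and 7.98 on control arrays 1 to 4. The means were 10.80 ± 0.55 and 9.04 ± 1.00 (SD, n = 4 each). The KLF7 array was the higher one in 15 of the 16 pairs of a KLF7 array with a control array, and the exception was KLF7 array 2 with control array 2. The difference was 1.76 (SE 0.46, 95% interval 0.75 to 2.78, 3.39-fold), with a limma adjusted p of 0.327. An exact two-sided permutation test of the 70 splits gave p = 0.0571, where the smallest possible is 0.0286. The control arrays alone covered 2.30 log2 units, more than the mean difference. Whether probe set 10355141 reads the viral transcript, the cells' own gene or both was not tested. In these bulk samples, a smaller share of cells and less RNA per cell cannot be told apart, for this gene and for those below.

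**Figure D1:**
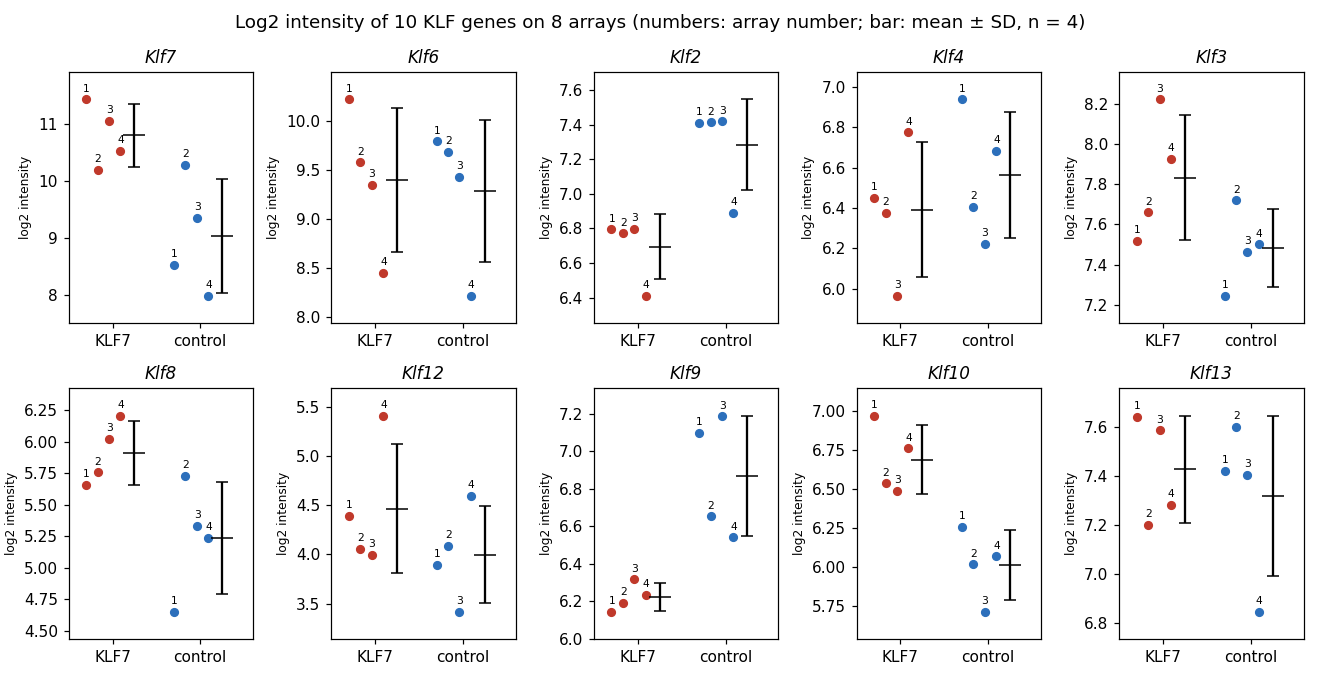
Log2 intensity of each of the 10 genes on the 4 KLF7 arrays (red, left) and the 4 control arrays (blue, right), with the array number above each point and the mean ± SD in black. The groups do not overlap for Klf2, Klf9 and Klf10, and Klf2 lies at nearly equal levels on arrays 1 to 3 of each group.

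Among the members that can act as activators, Klf6 is the closest relative of Klf7 and is known as a gene induced early by growth signals and injury. It had 10.22, 9.58, 9.35 and 8.45 on KLF7 arrays 1 to 4, against 9.79, 9.68, 9.43 and 8.22 on control arrays 1 to 4. The levels overlapped widely, and in both groups array 1 was highest and array 4 lowest. The difference was 0.12 (SE 0.42, 95% interval -0.80 to 1.04), with a limma adjusted p of 0.979. The interval spans both a lower and a higher level, so neither was detectable. The direction rested on single arrays, since the difference was -0.15 without KLF7 array 1 and -0.24 without control array 4.

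Klf2, known for keeping T cells at rest and for damping inflammation in vessel walls and monocytes, had 6.79, 6.77, 6.80 and 6.41 on KLF7 arrays 1 to 4. On control arrays 1 to 4 it had 7.41, 7.41, 7.42 and 6.89. Every KLF7 array lay below every control array, the closest pair being KLF7 array 3 and control array 4. Groups do not overlap, with the KLF7 arrays lower, for 2.38% of all genes. The difference was -0.59 (SE 0.18, 95% interval -0.99 to -0.19, 1.50-fold lower), with a limma adjusted p of 0.404. Leaving out single arrays gave values from -0.72 to -0.50.

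Klf4, a pluripotency factor that also acts in monocyte development, had 6.45, 6.38, 5.97 and 6.78 on KLF7 arrays 1 to 4, against 6.94, 6.41, 6.22 and 6.68 on control arrays 1 to 4. The groups overlapped, and array 3 was the lowest in both. The difference was -0.17 (SE 0.21, 95% interval -0.64 to 0.30), with a limma adjusted p of 0.936. It was -0.03 without KLF7 array 3 and -0.05 without control array 1, but -0.30 without KLF7 array 4 and -0.28 without control array 3.

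Of the CtBP-binding members, Klf8, a repressor studied in cell migration, had 5.66, 5.76, 6.02 and 6.21 on KLF7 arrays 1 to 4, against 4.65, 5.73, 5.33 and 5.24 on control arrays 1 to 4. The KLF7 array was higher in 15 of 16 pairs, and the exception joined KLF7 array 1 with control array 2. The difference was 0.67 (SE 0.22, 95% interval 0.18 to 1.16, 1.59-fold), with a limma adjusted p of 0.443. The mean level of Klf8 was below the median of all genes, where background correction can compress differences.

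Klf3, a repressor that works in B cells and red cell precursors, had 7.52, 7.66, 8.22 and 7.93 on KLF7 arrays 1 to 4, against 7.25, 7.72, 7.46 and 7.50 on control arrays 1 to 4. KLF7 arrays 3 and 4 lay above all controls, while KLF7 arrays 1 and 2 lay below control array 2. The difference was 0.35 (SE 0.20, 95% interval -0.09 to 0.79), with a limma adjusted p of 0.725. Without KLF7 array 3 it was 0.22.

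Klf12, first described as a repressor of the AP-2 alpha gene, had 4.39, 4.06, 3.99 and 5.41 on KLF7 arrays 1 to 4, against 3.90, 4.09, 3.42 and 4.60 on control arrays 1 to 4. Array 4 was the highest in both groups, by 1.26 over the mean of the other KLF7 arrays and by 0.80 over that of the other control arrays. The difference was 0.47 (SE 0.32, 95% interval -0.25 to 1.18), with a limma adjusted p of 0.801. It was 0.15 without KLF7 array 4, 0.27 without control array 3 and 0.26 with 16 added to the intensities before log2. Its mean level was also below the median of all genes.

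**Figure D2:**
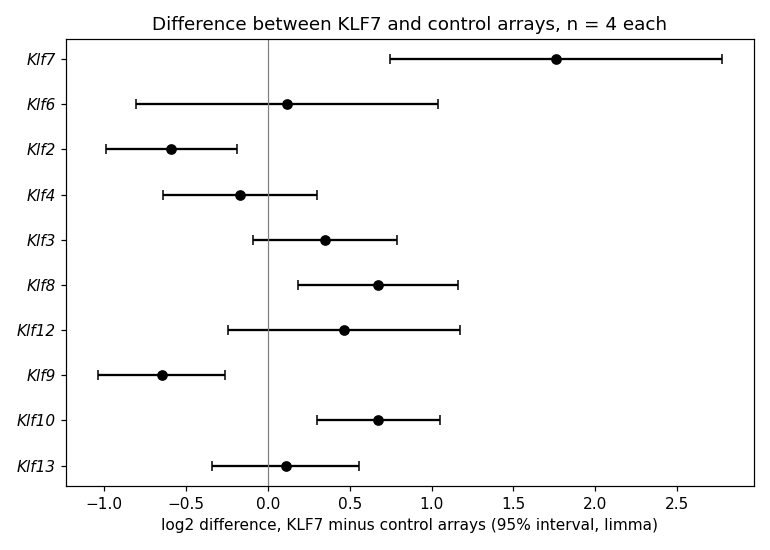
Log2 difference between the KLF7 and control arrays for each gene (points), with the 95% interval from limma (bars, n = 4 each) and a line at 0. The intervals of Klf7, Klf8 and Klf10 lie above 0 and those of Klf2 and Klf9 below it before adjustment over all genes. The interval of Klf6 runs from -0.80 to 1.04.

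Among the Sin3A-binding members, Klf10, known as an early gene of TGF-beta signalling that restrains growth, had 6.97, 6.54, 6.49 and 6.76 on KLF7 arrays 1 to 4. On control arrays 1 to 4 it had 6.26, 6.02, 5.71 and 6.07. Every KLF7 array lay above every control array, as for 2.83% of all genes. The difference was 0.68 (SE 0.17, 95% interval 0.30 to 1.05, 1.60-fold), with a limma adjusted p of 0.327.

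Klf9, a gene that glucocorticoid and thyroid hormones induce, had 6.14, 6.19, 6.32 and 6.23 on KLF7 arrays 1 to 4, against 7.10, 6.65, 7.19 and 6.54 on control arrays 1 to 4. The groups did not overlap, with the KLF7 arrays lower. The SD was 0.074 on the KLF7 arrays and 0.320 on the control arrays, and the ranges were 0.17 log2 units on the KLF7 arrays and 0.65 on the control arrays. The difference was -0.65 (SE 0.18, 95% interval -1.04 to -0.26, 1.57-fold lower), with a limma adjusted p of 0.360.

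Klf13, known for driving the chemokine gene Ccl5 in T cells, had 7.64, 7.20, 7.59 and 7.28 on KLF7 arrays 1 to 4, against 7.42, 7.60, 7.41 and 6.84 on control arrays 1 to 4. The groups overlapped, and control array 4 was the lowest of the 8. The difference was 0.11 (SE 0.20, 95% interval -0.34 to 0.56), with a limma adjusted p of 0.957. It was -0.05 without control array 4 and -0.02 with array weights.

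The level of Klf7 varied among arrays of 1 group, so each of the 9 other members was also set against it, array by array. Klf8 (r = 0.77, exact permutation p = 0.0236), Klf13 (r = 0.70, exact p = 0.0471), Klf10 (r = 0.66, exact p = 0.0797) and Klf3 (r = 0.63, exact p = 0.0945) had a positive r with Klf7 over 8 arrays, and Klf9 (r = -0.65, exact p = 0.0840) a negative one. The 9 relations were tested two-sided, and Spearman's rho was 0.69 for Klf8 and Klf3 (exact p = 0.0694 each), 0.67 for Klf13 (0.0831), and 0.64 for Klf10 and -0.64 for Klf9 (0.0962 each). Klf4 (r = -0.53, exact p = 0.179; rho = -0.31, exact p = 0.462), Klf2 (r = -0.44, exact p = 0.285; rho = -0.48, exact p = 0.243) and Klf6 (r = 0.43, exact p = 0.279; rho = 0.29, exact p = 0.501) followed. Klf12 stood at r = 0.16 (exact p = 0.713) and rho = 0.24 (exact p = 0.582). Over all other genes the median of the absolute r was 0.335, and 4.46% of genes had an r above 0.7.

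A limma fit of every gene on the Klf7 level gave p-values adjusted over all 19937 other genes. None of the 9 members passed at 0.05, and 0 of 19937 genes did (0%), with 9.67% of genes at an unadjusted p under 0.05, 4.42% of all genes with a rising slope and 5.25% with a falling one. Klf8 had the steepest slope among the members, 0.31 log2 units per log2 unit of Klf7 (SE 0.09, limma adjusted p 0.372). Klf10 (0.23, SE 0.10), Klf9 (-0.22, SE 0.10) and Klf8 had unadjusted p-values under 0.05, and their adjusted p-values were 0.497, 0.508 and 0.372 in limma.

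The arrays farthest from the median Klf7 level were control arrays 1 and 4. Without them the r over 6 arrays was 0.51 for Klf8 (exact p = 0.289) and 0.52 for Klf13 (exact p = 0.293), so neither relation held at 0.05 without these arrays. Without control array 1 alone, r was 0.72 for Klf8 (exact p = 0.0627) and 0.84 for Klf13 (exact p = 0.0222), and without control array 4 alone it was 0.81 for Klf8 (exact p = 0.0286) and 0.40 for Klf13 (exact p = 0.378). Across all alternatives the exact p lay between 0.0137 and 0.289 for Klf8 and between 0.0222 and 0.378 for Klf13. Without both control arrays, r was 0.84 for Klf10 (exact p = 0.0417), -0.80 for Klf9 (exact p = 0.0583), 0.40 for Klf3 (exact p = 0.424) and 0.02 for Klf4 (exact p = 0.974). For Klf2 it was -0.57 (exact p = 0.251), for Klf6 0.27 (exact p = 0.633) and for Klf12 0.44 (exact p = 0.365).

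**Figure D3:**
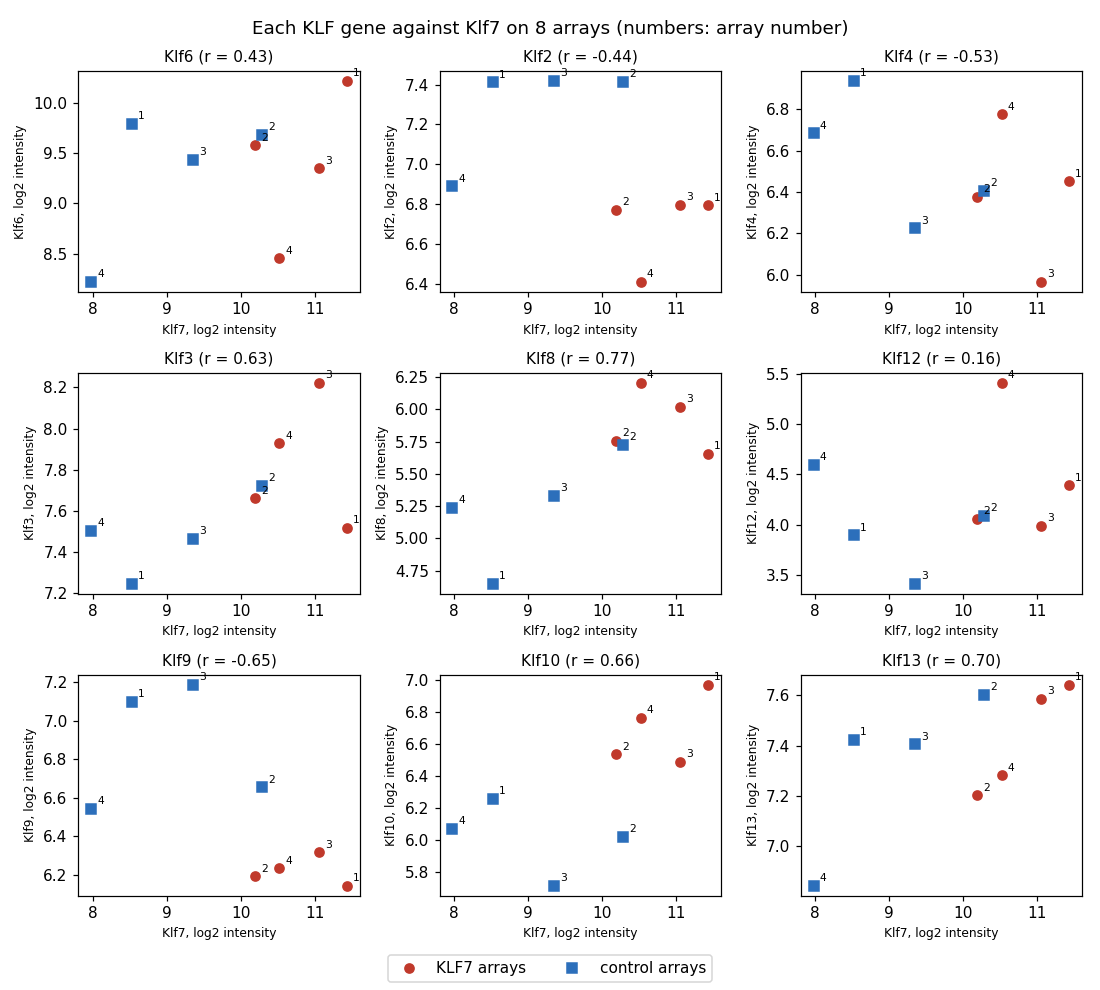
Log2 intensity of each of 9 KLF genes (y axes) against that of Klf7 (x axes) on the 4 KLF7 arrays (red circles) and 4 control arrays (blue squares), numbered by array, with Pearson's r. Control array 2, at a Klf7 level of 10.28, lies beside KLF7 array 2 for Klf3, Klf4, Klf6, Klf8 and Klf12, and apart from it for Klf2, Klf9, Klf10 and Klf13.

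Control array 2 and KLF7 array 2 had nearly the same Klf7 level, 10.19 on the KLF7 array and 10.28 on the control array, which sets the label apart from the level in 1 pair of arrays. At these equal levels Klf10 had 6.54 on the KLF7 array and 6.02 on the control array. Klf2 had 6.77 on the KLF7 array and 7.41 on the control array, and Klf9 had 6.19 and 6.65 in the same order. Klf8, in contrast, had 5.76 on the KLF7 array and 5.73 on the control array, and Klf3 had 7.66 on the KLF7 array and 7.72 on the control array. Klf13 had 7.20 on the KLF7 array and 7.60 on the control array. A single pair of arrays carries no test.

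Within the groups, after the group means were taken away, Klf10 had r = -0.06 with Klf7. That value joined opposite signs, 0.55 over the 4 KLF7 arrays and -0.40 over the 4 control arrays. Klf9 had 0.04, with -0.09 over the KLF7 arrays and 0.06 over the control arrays. Klf2 turned to r = 0.61, with 0.38 over the KLF7 arrays and 0.70 over the control arrays. Klf8 had 0.47, with -0.29 over the 4 KLF7 arrays and 0.70 over the 4 control arrays. Klf13 kept an r of 0.87, with 0.98 over the 4 KLF7 arrays and 0.84 over the 4 control arrays, and Klf6 had 0.58, with 0.54 over the KLF7 arrays and 0.65 over the control arrays. These values describe 4 arrays a group and carry no test. In limma with group as a second term, the slope was -0.02 for Klf10 (SE 0.13), 0.01 for Klf9 (SE 0.13), 0.17 for Klf2 (SE 0.12), 0.21 for Klf8 (SE 0.15) and 0.30 for Klf13 (SE 0.11). It was 0.52 for Klf6 (SE 0.25), 0.09 for Klf3 (SE 0.14), -0.20 for Klf4 (SE 0.14) and -0.21 for Klf12 (SE 0.23). The smallest adjusted p of the 9 was 0.394, that of Klf13.

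**Figure D4:**
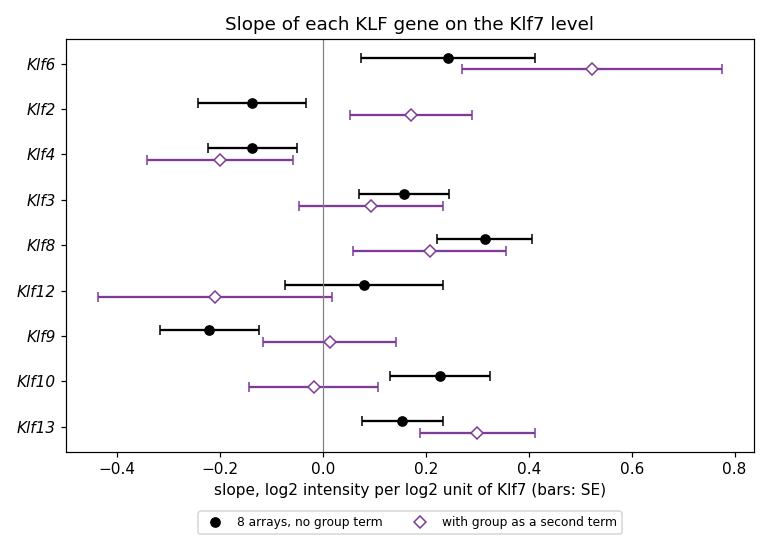
Slope of each of 9 KLF genes on the Klf7 level (log2 intensity per log2 unit of Klf7, bars SE), over all 8 arrays (black circles) and with group as a second term (open purple diamonds). The slopes of Klf9 and Klf10 lie at -0.22 and 0.23 without the group and at 0.01 and -0.02 with it, and that of Klf13 lies at 0.15 and 0.30.

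Of all genes, those with the highest r with Klf7 over the 8 arrays were Glrb, a glycine receptor subunit (0.98), Rasgrp4, a Ras activator of mast cells (0.98), and Cacng7, a calcium channel subunit (0.97). Exoc1, a subunit of the exocyst (0.97), and Dennd1c, a Rab activator (0.96), followed. The lowest were Ankra2, an ankyrin repeat protein (-0.98), the pseudogene Rps19-ps3 (-0.97), Rad18, a ubiquitin ligase of DNA repair (-0.97), Kansl2, of the NSL acetyltransferase complex (-0.96), and Kcnj16, a potassium channel (-0.96). No KLF member was among these 10, and none of the 10 passed in the limma fit on the Klf7 level (adjusted p between 0.354 and 0.627). As the extremes of 19937 genes over 8 arrays, they are a description only. Glrb and Kcnj16 were read by dim probe sets, at 3.411 to 3.812 for Glrb and 3.795 to 4.035 for Kcnj16. Their slopes were 0.11 for Glrb and -0.06 for Kcnj16, in log2 units per log2 unit of Klf7.

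The arrays numbered 4 stood apart for several members in both groups. Against the mean of the other arrays of its group, Klf6 stood at -1.26 on KLF7 array 4 and -1.41 on control array 4, and Klf2 at -0.38 on KLF7 array 4 and -0.52 on control array 4. Klf12 stood at 1.26 on KLF7 array 4 and 0.80 on control array 4. The mean level of the 10 mast cell and basophil markers was also lowest on both arrays. It was 6.26 on KLF7 array 4 and 6.00 on control array 4, against 8.48 to 9.63 on the other arrays. The mean level of the 12 neutrophil markers was lowest there too, at 7.66 on KLF7 array 4 and 7.51 on control array 4, against 8.03 to 9.61. Single markers did not all follow these means, and Mmp8 was the highest of its group on both arrays, at 10.14 on KLF7 array 4 and 9.665 on control array 4. The mean of 14 co-repressors and co-activators of KLF proteins was the highest of its group on both arrays, at 8.02 on KLF7 array 4 and 8.07 on control array 4. The part of mast cells, basophils and neutrophils in the KLF values was not tested. Without both arrays numbered 4 the difference was -0.63 for Klf2, -0.76 for Klf9, 0.67 for Klf10, 0.58 for Klf8 and 1.50 for Klf7, and the limma adjusted p lay between 0.287 and 0.517 for these 5.

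Markers of other blood cell types were compared too. Among 15 monocyte, macrophage and dendritic cell markers, 13 averaged higher on the KLF7 arrays, and 9 did so at an unadjusted p under 0.05 (4.65% of all genes). Their median difference was 0.69. Their mean level lay between 8.40 and 9.56 on the KLF7 arrays and between 7.59 and 8.78 on the control arrays. None of the 15 passed adjusted over all genes in limma. The 9 included H2-Aa, H2-Eb1, H2-Ab1 and Cd74, all of MHC class II presentation. The 2 that averaged lower were Cd68 (-0.03, SE 0.32) and Siglech (-0.12, SE 0.18). Cd14 stood at 0.17 (SE 0.51) and Csf1r at 0.36 (SE 0.42). A higher mean was found for 7 of 12 neutrophil markers (median 0.06, and -0.50 to 0.16 without single arrays). For lymphoid markers it was 6 of 14 (median -0.03, and -0.07 to 0.07 without single arrays). For mast cell and basophil markers it was 6 of 10 (median 0.33, and -0.61 to 0.89 without single arrays). Among erythroid and megakaryocyte markers, 1 of 9 had a higher mean. None of the neutrophil, lymphoid, mast cell and basophil markers had an unadjusted p under 0.05 in either direction. The erythroid and megakaryocyte markers had a median difference of -0.30, but 0.04 without control array 4. Among them Car2 was lower at an unadjusted p under 0.05 (-0.64, SE 0.24, limma adjusted p 0.489), as were 3.56% of all genes. The part of these cells in the differences of Klf2, Klf8, Klf9 and Klf10 was not tested.

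The rest of the family was described by counts. Of 15 other KLF and SP factors measured, 9 averaged higher and 6 lower on the KLF7 arrays (median difference 0.12, but between 0.02 and 0.07 without any single array other than control array 1), and 0 passed adjusted over all genes in limma. Klf17, a factor of early embryos, was the 1 gene at an unadjusted p under 0.05, at 0.30 (SE 0.12), on a dim probe set with means of 4.03 on the KLF7 arrays and 3.72 on the control arrays. Klf1, the red cell factor, was at -0.41 (SE 0.25), Sp3 at 0.24 (SE 0.18) and Klf11, a close relative of Klf10, at 0.26 (SE 0.24), none of them past the test.

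Partners through which the factors act were split in direction. Of 14 co-repressors and co-activators, 5 averaged higher and 9 lower (median -0.03, and 0.03 without control array 4), and none passed over all genes in limma. Kat2b, the acetyltransferase PCAF, had 6.76, 6.66, 6.66 and 6.61 on KLF7 arrays 1 to 4, against 6.15, 6.30, 6.42 and 6.08 on control arrays 1 to 4. The groups did not overlap, at a difference of 0.43 (SE 0.14, limma adjusted p 0.428). Its paralogue Kat2a, or GCN5, stood at -0.51 (SE 0.21, limma adjusted p 0.568), the deacetylase gene Hdac2 at -0.49 (SE 0.23) and the arginine methyltransferase gene Prmt5 at -0.59 (SE 0.31). Ubiquitin ligases known to act on KLF proteins averaged higher for 7 of 9 (median 0.06), with the difference of Fbxo32 at 5.1e-05, and 3 of the 9 were higher at an unadjusted p under 0.05, against 4.65% of all genes. The median was 0.0041 without KLF7 array 1, 0.01 without KLF7 array 4 and 0.17 without KLF7 array 2. The 3 were Fbxw7, at 0.93 (SE 0.24, limma adjusted p 0.335), Itch, at 0.52 (SE 0.19, adjusted p 0.489), and Smurf1, at 0.54 (SE 0.21, adjusted p 0.519).

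Genes that share a known inducer or target with a member were counted too. Of 12 genes that glucocorticoids induce, as they do Klf9, 5 averaged higher and 7 lower (median -0.08, and -0.18 without KLF7 array 4). The metallothionein genes Mt1 (-0.58, SE 0.18) and Mt2 (-0.87, SE 0.33) and the stress gene Ddit4 (-0.45, SE 0.18) were lower at an unadjusted p under 0.05, as were 3.56% of all genes, while Fkbp5 stood at -0.14 (SE 0.18) and Tsc22d3 at -0.02 (SE 0.20). Of 12 early genes of TGF-beta signalling, the pathway Klf10 is known for, 8 averaged higher (median 0.15, but 0.02 without control array 2 and 0.08 without KLF7 array 4). Id2, an inhibitor of helix-loop-helix factors, was at 0.87 (SE 0.28, limma adjusted p 0.439) and Smurf1 was the other of the 12 at an unadjusted p under 0.05 (4.65% of all genes higher). Of 9 trafficking and vascular genes tied to Klf2, 7 averaged higher (median 0.18, but 0.07 without KLF7 array 3 and 0.09 without control array 1). These genes were not split by the direction in which Klf2 acts on them, so the count does not speak of Klf2 activity. Ccr7, a homing receptor, was at 1.28 (SE 0.30, limma adjusted p 0.323), Itgb7, an integrin subunit, at 0.87 (SE 0.27, adjusted p 0.402) and S1pr1, the receptor for exit from tissues, at 0.34 (SE 0.21, adjusted p 0.777). Of 13 FoxO targets, 7 averaged higher (median 0.01, but -0.11 without KLF7 array 1 and -0.04 without control array 2) and none had an unadjusted p under 0.05. None of these 4 lists held a gene past the test over all genes in limma.

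Of 19 serum and stress immediate early genes, 14 averaged higher on the KLF7 arrays (median 0.12). The median was -0.06 without KLF7 array 1 and -0.18 without control array 4. Myc, at 10.41, 10.69, 10.83 and 10.87 on KLF7 arrays 1 to 4 and at 11.52, 11.37, 11.29 and 11.13 on control arrays 1 to 4, did not overlap between the groups, at -0.63 (SE 0.17, limma adjusted p 0.368). Ier3 was at 0.67 (SE 0.27, adjusted p 0.541). The mean of the 19 genes was 9.21, 8.49, 8.43 and 7.70 on KLF7 arrays 1 to 4, and 8.77, 8.67, 8.33 and 7.52 on control arrays 1 to 4. Klf6 followed this order in both groups, with array 1 highest and array 4 lowest. Because both arrays numbered 4 stood apart, the relation was taken over the other 6 arrays, where Klf6 had r = 0.98 with the list's mean (exact permutation p = 0.0028) and rho = 0.94 (exact p = 0.0167). Over the same 6 arrays the other 9 members had r between -0.36 and 0.76. Klf4 had r = 0.49 (exact p = 0.307) but rho = 0.89 (exact p = 0.0333). Klf13 had r = 0.80 over all 8 arrays (exact p = 0.0177) and 0.50 over these 6 (exact p = 0.328). Klf6 was singled out of these 10 relations after its values were seen, so its p-values are a description only. The permutations also take every order of the arrays as equally likely. Deviations of same-numbered arrays, however, correlated at r = 0.35, -0.13 and 0.36 for numbers 1 to 3.

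Stretches upstream of the gene starts were read for the letters that KLF proteins are known to bind, for the 9 members with an entry in the RefSeq promoter table (GRCm38.p6). The first motif was CACCC, the next was GGGCGG and the last was CCNCNCCC, each counted on both strands in the 250 bases before the start. The last overlaps the others in many places. CACCC was found upstream of 7 of the 9, where 52.0% of all 32851 promoters hold it. GGGCGG was found upstream of 7 (32.7% of all promoters) and CCNCNCCC upstream of 8 (45.9%). The members' stretches were 48.0% to 78.4% G and C, against a median of 52.4% over all promoters, and base composition alone moves such counts. The upstream stretches of Klf2 and Klf9 are shown because these were the members with lower levels on every KLF7 array; capitals mark the motifs. That of Klf2 is chr8:72318812-72319061 on the plus strand, with 1 match to CACCC, 2 matches to GGGCGG and 4 matches to CCNCNCCC. That of Klf9 is chr19:23140976-23141225 on the plus strand, with 1 match to CACCC and 0 to the others.
Klf2: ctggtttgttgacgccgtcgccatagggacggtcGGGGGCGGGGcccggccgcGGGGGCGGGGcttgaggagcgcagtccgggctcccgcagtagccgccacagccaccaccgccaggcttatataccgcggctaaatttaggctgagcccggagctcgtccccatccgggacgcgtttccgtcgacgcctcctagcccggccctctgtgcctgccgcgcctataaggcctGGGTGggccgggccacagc
Klf9: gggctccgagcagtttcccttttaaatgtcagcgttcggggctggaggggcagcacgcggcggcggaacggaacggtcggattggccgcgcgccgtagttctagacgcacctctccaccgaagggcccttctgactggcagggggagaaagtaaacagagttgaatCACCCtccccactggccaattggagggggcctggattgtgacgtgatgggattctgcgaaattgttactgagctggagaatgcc
A match in these letters is a description and not a binding site, and no match says only that the letters are not in this window.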

How the data were processed

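The authors deposited probe set intensities on a linear scale. The submitters' processing notes name RMA and Affymetrix Expression Console, and state no version, later step or genome build. The values ran from 2.20 to 15393, so log2 was taken. Of 35554 probe sets, 21789 had 1 gene symbol in the platform annotation, 1621 several and 12144 none. 21698 were matched to RefSeq (GRCm38) by Entrez number. The probe set with the highest mean was kept for each of 19938 genes. Each gene was fitted with limma 3.58.1 (R 4.3.3), group as the only term, with an intensity trend, two-sided, adjusted by Benjamini-Hochberg over all genes. A further fit used the Klf7 level. No count is adjusted over a list alone.

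The members and lists were chosen with earlier results of these data known. The named genes were the 10 members, the genes at either end of the r with Klf7 (5 each), and up to 4 genes a list by smallest unadjusted p. Fbxo32, Fkbp5, Tsc22d3, the named monocyte, macrophage and dendritic cell markers and Klf6's relation to the immediate early genes were picked after values were seen. On simulated data over 19938 genes, limma for KLF7 against control recovered 74% of 100 genes changed 2-fold and 93% of 100 changed 4-fold. It also called 10 unchanged genes. The simulated noise was drawn separately for each gene and array, unlike the shared deviations of same-numbered arrays here. These shares therefore do not say what could be detected on the arrays themselves, where 0 genes passed. The comparison of proteins was not made. Arrays give no counts, and their number limits the precision. Alternatives left out each array, used the replicate number as a block, and changed the normalization, weights, prior, dim genes, probe set rule and scale. Figures were drawn with matplotlib 3.10.9.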

Additional observations from a re-analysis of the deposited data

Results flagged for a closer look

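Klf2 had 1 array far from the others in each group. The gap of array 4 to its nearest neighbour was 0.9341 of the whole range on the 4 KLF7 arrays and 0.9844 of it on the 4 control arrays, above Dixon's 95% critical value for 4 samples. Array 4 was the lowest in both, at 6.41 on the KLF7 arrays and 6.89 on the control arrays, while arrays 1 to 3 lay between 6.77 and 6.80 and between 7.41 and 7.42 in the same order. Of 20 groups of 4 values tested, 2 exceeded the critical value, and chance gives about 1 in 20.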

How the results depend on the processing

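Of 188 differences of the 10 members recomputed under alternatives, 183 kept their direction and stayed short of the threshold, 0 passed it and 5 had the opposite sign. These were Klf6 without KLF7 array 1 (-0.1547) and without control array 4 (-0.2362), and Klf13 without control array 4 (-0.04906), with array weights (-0.02438) and without both arrays numbered 4 (-0.0004418). Without 1 array, Klf6 reached 0.4327 and Klf13 0.2039 at most. The Klf7 difference lay between 1.40 and 2.38, and between 1.41 and 2.18 with each array left out. The number of genes past 0.05 in limma was 0 in the alternatives other than the replicate block (90 genes, 0 of them members) and the settings without 1 array, which gave 0 to 1. At an unadjusted p there were 2691 genes with the replicate block against 1637, and 1209 to 1969 without 1 array. With the block, the adjusted p of the members lay between 0.0689 (Klf10) and 0.871 (Klf13), and Klf12 joined the members at an unadjusted p under 0.05 (0.0108, adjusted 0.193). Same-numbered arrays deviated together at r = 0.35, -0.13, 0.36 and 0.70 for numbers 1 to 4, and 6 of 8 arrays correlated best with their own number, a hint from the data and not the design. Slopes on Klf7 took the opposite sign with group as a second term for Klf2 (0.1712), Klf9 (0.01289), Klf10 (-0.01796) and Klf12 (-0.2103), for Klf12 without KLF7 array 4 (-0.0005407) and for Klf6 without control array 4 (-0.0003849); without 1 array these slopes reached 0.2754 for Klf12 and 0.4018 for Klf6. So did r with Klf7 for Klf4 without the arrays farthest from the median (0.01947), for Klf6 without control array 4 (-0.0007029) and for Klf12 without KLF7 array 4 (-0.001836), where r reached 0.6583 for Klf6 and 0.442 for Klf12 without another array. The cause of these turns was not tested. The number of genes past the threshold in the fit on the Klf7 level was 0 in every alternative run. With the arrays scaled again by quantiles, the Klf6 difference was 0.02346.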
